A study of Mus musculus with 12 samples.

Results

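The 9 genes described here encode proteins of the junctions between cells: the cadherins Cdh1, Cdh2, Cdh3 and Cdh11, the catenins Ctnna1, Ctnnd1 and Jup, and the tight junction proteins Tjp1 and Ocln. They were chosen by name, with earlier results of these data known, and each had 1 entry among the 23282 gene symbols of the deposited read counts. C22 is a mouse lung club cell line, a single immortalised clone from H-2Kb-tsA58 mice that grows with interferon-γ and differentiates at a higher temperature without it. Differentiated, serum-starved C22 cells had received a negative control (NC) or an siRNA against Pdcd5 (siPdcd5) and were left without TGF-β1 or given 20 ng/ml TGF-β1 for 24 h. The 4 groups, NC and siPdcd5 without TGF-β1 and both with it (written NC + TGF-β1 and siPdcd5 + TGF-β1), had 3 libraries each of 3′ mRNA sequencing. The labels do not say whether the libraries of a group came from separate cultures, so the tests measure only the spread between these samples, which may be technical. The comparisons ask whether TGF-β1 altered junction gene mRNA in these cells and whether Pdcd5 knockdown altered that response.

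Classical cadherins are transmembrane proteins that bind a cadherin of the neighbouring cell. Inside the cell, p120 catenin (Ctnnd1) binds the cadherin tail near the membrane and keeps the cadherin at the surface, and alpha-catenin (Ctnna1) couples the complex to actin. Plakoglobin (Jup) serves both adherens junctions and desmosomes, and ZO-1 (Tjp1) and occludin (Ocln) belong to tight junctions. In epithelial-mesenchymal transition, which TGF-β1 is known to induce in many epithelial cells, E-cadherin (Cdh1) is typically lost and N-cadherin (Cdh2) gained.

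Library totals ran from 12809857 to 17714828 counts, so that 3 counts, taken as the floor, equal 0.165 to 0.239 CPM (counts per 1000000 of the TMM-adjusted library total). Pdcd5 mRNA measured 65.1 to 73.5 CPM across the 6 libraries with the negative control but 20.0 to 26.3 CPM across the 6 with the siRNA, the low ones being those labelled as knockdown. The defining club cell markers were all but absent: Scgb3a2 and Cyp2f2 had no count in any of the 12 libraries, and Scgb1a1 had 1 count in 1 library. Keratins Krt8 (171 to 524 CPM) and Krt18 (373 to 1199 CPM) were present, whereas Epcam had 1 count in 1 library. The summed level of 6 epithelial markers, nearly all of it Krt8 and Krt18, was 673 to 695 CPM in NC, 1240 to 1676 once TGF-β1 was added, 547 to 698 in siPdcd5 and 1583 to 1645 in siPdcd5 + TGF-β1. The summed level of 7 mesenchymal markers, all detected, was 6154 to 6543 CPM in NC, 10017 to 10813 once TGF-β1 was added, 5059 to 5317 in siPdcd5 and 7522 to 8077 in siPdcd5 + TGF-β1. Its members did not all run one way: with TGF-β1 the group mean of Col1a1 was 6119 against 2719 CPM in NC and 4556 against 1959 in siPdcd5 cells, whereas that of Vim was 1360 against 2082 and 1278 against 2186. Acta2 was on the side of Col1a1 (1512 against 543 CPM in NC cells) and Pdgfra on that of Vim (4.61 against 5.90). The sum of 5 club cell markers, nearly all of it Aldh1a1, was 547 to 556, 231 to 245, 293 to 327 and 155 to 166 CPM over the 4 groups in the same order, and the part of these marker sets in the junction gene results was not tested. Replicate 2 of NC + TGF-β1 and replicate 1 of siPdcd5 stood apart from the other libraries of their groups: the 4 replicate pairs with one of them had a chi-square of 26.4 to 61.5 per gene, against 4.35 to 11.8 in the 8 other pairs. Both stay in all values unless stated.

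Of the 9 junction genes, 6 passed the expression filter and were tested among 12425 genes, and Cdh3, Cdh11 and Ocln did not. None of the 6 passed an adjusted p of 0.05 in any comparison with all 12 libraries (quasi-likelihood F test of edgeR, p adjusted after Benjamini and Hochberg). Of all tested genes 15.3% passed with TGF-β1 in NC cells, 16.1% with TGF-β1 in siPdcd5 cells, 3.44% with knockdown without TGF-β1, 1.55% with knockdown under TGF-β1 and 0% for the difference between the TGF-β1 responses. Cdh2 and Ctnna1 were the most abundant at 381 to 451 and 232 to 261 CPM as group means, Ctnnd1 was 105 to 178, Jup and Tjp1 were 41.8 to 80.7, and Cdh1 was 2.12 to 3.18. As a 3′ library reads about one fragment per transcript, these CPM were not divided by gene length.

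Cdh1, the E-cadherin of epithelial adherens junctions, lies on chromosome 8 at 106603351 to 106670246 (plus strand, GRCm38) and was barely detected. Its level was 4.03, 3.12 and 2.38 CPM in NC, 1.91, 2.39 and 2.05 once TGF-β1 was added, 2.07, 2.92 and 2.12 in siPdcd5 and 2.01, 2.24 and 2.29 in siPdcd5 + TGF-β1, from 24 to 53 counts per library. The NC libraries held the 2 highest values, but the lowest of them (2.38) lay just under the highest with TGF-β1 (2.39), so the 2 groups overlapped. TGF-β1 in NC cells gave a log2 fold change of −0.58 (SE 0.26, 95% interval −1.14 to −0.02), and the edgeR adjusted p was 0.167. In siPdcd5 cells it was −0.13 (SE 0.26, interval −0.69 to 0.43, edgeR adjusted p = 0.786), and the difference between these responses was 0.45 (SE 0.37, interval −0.34 to 1.25, edgeR adjusted p = 0.960). Knockdown gave −0.41 (SE 0.25, interval −0.96 to 0.14, edgeR adjusted p = 0.491) without TGF-β1 and 0.04 (SE 0.27, interval −0.54 to 0.62, edgeR adjusted p = 0.972) with it. Leaving out NC replicate 1, the library with 4.03 CPM, brought TGF-β1 in NC cells to −0.38 (edgeR adjusted p = 0.475), knockdown without TGF-β1 to −0.20 and the difference between the responses to 0.24. Leaving out NC replicate 3 instead, the library with 2.38 CPM, brought these values to −0.76 (edgeR adjusted p = 0.101), −0.59 and 0.63.

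Cdh2, the N-cadherin of mesenchymal and neural cells, is on chromosome 18 and supplied 98.9 to 99.4% of the counts of the 4 cadherins in every library. Its level was 423, 491 and 438 CPM in NC, 415, 383 and 464 once TGF-β1 was added, 304, 472 and 368 in siPdcd5 and 394, 375 and 412 in siPdcd5 + TGF-β1. The lowest value belonged to replicate 1 of siPdcd5, a library that stood apart, and each pair of compared groups overlapped. The log2 fold change with TGF-β1 was −0.10 (SE 0.13, interval −0.39 to 0.19) in NC and 0.05 (SE 0.13, interval −0.24 to 0.33) in siPdcd5 cells, with edgeR adjusted p = 0.696 and 0.862. Knockdown gave −0.24 (SE 0.13, interval −0.53 to 0.04, edgeR adjusted p = 0.423) without TGF-β1 and −0.10 (SE 0.13, interval −0.38 to 0.19, edgeR adjusted p = 0.822) with it. The Cdh2 counts per Cdh1 count ranged from 105 to 184 in NC, 160 to 226.5 once TGF-β1 was added, 147 to 173 in siPdcd5 and 168 to 196 in siPdcd5 + TGF-β1, and the NC range overlapped all others. Cdh2 thus had 105 or more counts for each Cdh1 count in every library, without TGF-β1 as well as with it. The TGF-β1 responses of Cdh2 in NC and siPdcd5 cells differed by 0.15 (SE 0.19, interval −0.26 to 0.55, edgeR adjusted p = 0.973).

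**Figure D1:**
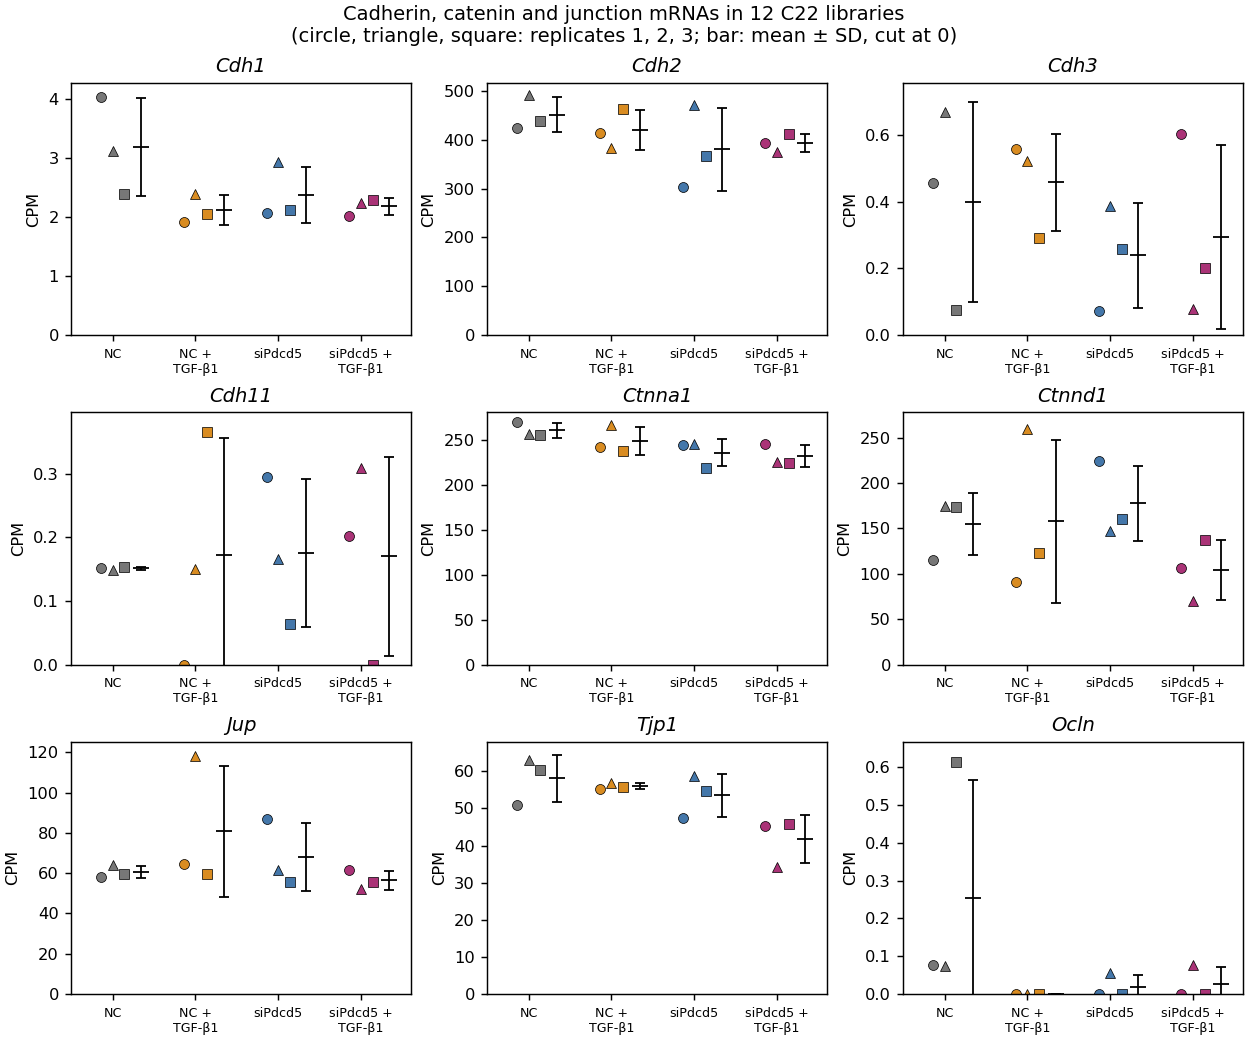
Level of the 9 junction genes in each of the 12 libraries, as CPM on a vertical axis that starts at 0 in each panel. Points are replicates 1, 2 and 3 of a group and bars the mean ± SD (n = 3), cut at 0 for the low genes. Cdh1 sits between 1.91 and 4.03 CPM, Cdh2 between 304 and 491, and Cdh3, Cdh11 and Ocln close to 0.

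Cdh3 (P-cadherin, chromosome 8 at 106510891 to 106557297, plus strand) lies beside Cdh1. Its counts were 6, 9 and 1 in NC, 7, 7 and 4 once TGF-β1 was added, 1, 7 and 4 in siPdcd5 and 9, 1 and 3 in siPdcd5 + TGF-β1. Cdh11 (OB-cadherin, a mesenchymal cadherin, chromosome 8 at 102632095 to 102785642, minus strand) had 2, 2 and 2 counts in NC, 0, 2 and 5 in NC + TGF-β1, 4, 3 and 1 in siPdcd5 and 3, 4 and 0 in the last group. Both genes ranged around the floor of 3 counts in all groups, and differences were not detectable at this depth.

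Ocln, whose occludin spans the membrane at tight junctions, lies on chromosome 13 at 100496507 to 100552718 (minus strand). It had 1, 1 and 8 counts in NC, none in the 3 libraries of NC + TGF-β1, and 0 or 1 in the 6 siPdcd5 libraries. NC replicate 3 thus held 8 of the 12 counts, and 7 libraries had none. A count of 0 allows up to 3 counts, or 0.193 to 0.239 CPM in the libraries with none, counting error only. With the expression filter lifted, the edgeR adjusted p of Ocln was 0.120 for TGF-β1 in NC cells and 0.423 for knockdown without TGF-β1. RefSeq start sites, 2 of them, were tabulated for Ocln (GRCm38.p6). The window of the start at chr13:100552449-100552748, from 250 bases before to 50 bases after the start, is shown because the E-box CAGGTG, a motif bound by Snail and Zeb repressors in many epithelial promoters, occurs in it, printed in capitals; CACCTG, the same motif on the other strand, was searched too.
Ocln: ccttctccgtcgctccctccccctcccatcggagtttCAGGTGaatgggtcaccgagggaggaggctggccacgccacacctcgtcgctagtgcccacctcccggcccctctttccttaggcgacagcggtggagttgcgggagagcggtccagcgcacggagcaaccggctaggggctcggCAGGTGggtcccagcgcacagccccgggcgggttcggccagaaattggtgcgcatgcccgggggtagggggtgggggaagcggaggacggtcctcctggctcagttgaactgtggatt
This window held 2 copies, while 2.88% of 32851 such windows held 2 or more and 20.2% held at least 1. It was chosen for holding the motif, so these shares are no test. The other Ocln window (chr13:100552669-100552968) overlaps it and held 1 copy, which is the first of the 2 printed here. A match is a letter match only, and says nothing of binding in these cells.

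Ctnna1, the actin-coupling alpha-catenin, is on chromosome 18 and was the steadiest member. Its level was 270, 257 and 256 CPM in NC, 242, 267 and 238 once TGF-β1 was added, 244, 246 and 219 in siPdcd5 and 246, 226 and 225 in siPdcd5 + TGF-β1. The highest library was 1.24 times the lowest over all 12, against 1.62 for Cdh2 and 3.70 for Ctnnd1. All 3 siPdcd5 libraries lay below all 3 NC libraries, by a log2 fold change of −0.14 (SE 0.08, interval −0.32 to 0.04, edgeR adjusted p = 0.451); 23.1% of all tested genes also had groups that did not overlap in that comparison. TGF-β1 gave −0.07 (SE 0.08, interval −0.25 to 0.11, edgeR adjusted p = 0.677) in NC cells and −0.02 (SE 0.08, interval −0.20 to 0.16, edgeR adjusted p = 0.887) in siPdcd5 cells. Knockdown under TGF-β1 gave −0.10 (SE 0.08, interval −0.28 to 0.08, edgeR adjusted p = 0.655), and the TGF-β1 responses differed by 0.04 (SE 0.12, interval −0.21 to 0.30, edgeR adjusted p = 0.994). As folds the TGF-β1 intervals run from 0.843 to 1.08 and from 0.869 to 1.11. Lrrtm2, which lies within Ctnna1 on the other strand, had 58 to 106 counts a library, and strand use in counting is not given in the sources used here.

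Ctnnd1, the p120 catenin on chromosome 2 at 84600071 to 84650765 (minus strand), varied most among the tested members. Its level was 115, 175 and 174 CPM in NC, 90.9, 260 and 123 once TGF-β1 was added, 224, 147 and 161 in siPdcd5 and 107, 70.4 and 137 in siPdcd5 + TGF-β1. The 2 highest values, 260 and 224 CPM, came from the 2 libraries that stood apart. Every siPdcd5 + TGF-β1 library lay below every siPdcd5 library, a log2 fold change of −0.76 (SE 0.33, interval −1.47 to −0.06, edgeR adjusted p = 0.139), where 36.1% of genes had groups without overlap. In NC cells the groups overlapped and the log2 fold change was 0.03 (SE 0.33, interval −0.67 to 0.73, edgeR adjusted p = 0.969). With both libraries that stood apart left out, a step added after the values were seen, Ctnnd1 fell with TGF-β1 by 0.55 on the log2 scale (SE 0.18, edgeR adjusted p = 0.0252) in NC and by 0.55 (SE 0.18, edgeR adjusted p = 0.0231) in siPdcd5 cells, when 29.5% and 25.4% of tested genes passed. Leaving out replicate 2 of NC + TGF-β1 alone turned the value in NC cells to −0.53 and, through the shared spread, brought the edgeR adjusted p in siPdcd5 cells to 0.0145 at −0.76. Knockdown gave 0.20 (SE 0.33, edgeR adjusted p = 0.839) without and −0.59 (SE 0.33, interval −1.30 to 0.11, edgeR adjusted p = 0.458) with TGF-β1, and with both libraries left out the second value was −0.01 (edgeR adjusted p = 0.979). The TGF-β1 responses of Ctnnd1 differed by −0.79 (SE 0.46, interval −1.79 to 0.20, edgeR adjusted p = 0.951).

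Jup, plakoglobin on chromosome 11 at 100368958 to 100397763 (minus strand), was 58.2, 64.2 and 59.6 CPM in NC, 64.6, 118 and 59.5 once TGF-β1 was added, 86.9, 61.5 and 55.6 in siPdcd5 and 61.3, 52.3 and 55.6 in siPdcd5 + TGF-β1. The values of 118 and 86.9 CPM again came from the 2 libraries that stood apart, and the other 10 libraries lay between 52.3 and 64.6 CPM. Knockdown with TGF-β1 gave a log2 fold change of −0.52 (SE 0.22, interval −0.99 to −0.05, edgeR adjusted p = 0.312), and without the 2 libraries it was −0.12 (edgeR adjusted p = 0.472). TGF-β1 in NC cells gave 0.41 (SE 0.22, interval −0.06 to 0.88, edgeR adjusted p = 0.252), against 0.02 without them. In siPdcd5 cells it gave −0.27 (SE 0.22, interval −0.74 to 0.20, edgeR adjusted p = 0.460), and knockdown without TGF-β1 gave 0.16 (SE 0.22, interval −0.31 to 0.63, edgeR adjusted p = 0.797). The difference between the TGF-β1 responses of NC and siPdcd5 cells was −0.68 (SE 0.31, edgeR adjusted p = 0.951). It was −0.30 without replicate 2 of NC + TGF-β1 alone and −0.066 without both libraries. What set those libraries apart was not tested. The windows of a Jup start at chr11:100397741-100398040 and a Ctnnd1 start at chr2:84650691-84650990 are shown because both genes were highest in the same 2 libraries.
Jup: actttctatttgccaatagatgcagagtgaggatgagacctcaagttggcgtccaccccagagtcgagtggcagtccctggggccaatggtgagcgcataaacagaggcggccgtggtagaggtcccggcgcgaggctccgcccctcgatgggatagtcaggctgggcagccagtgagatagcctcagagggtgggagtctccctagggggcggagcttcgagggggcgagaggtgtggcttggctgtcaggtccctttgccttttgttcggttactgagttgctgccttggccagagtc
Ctnnd1: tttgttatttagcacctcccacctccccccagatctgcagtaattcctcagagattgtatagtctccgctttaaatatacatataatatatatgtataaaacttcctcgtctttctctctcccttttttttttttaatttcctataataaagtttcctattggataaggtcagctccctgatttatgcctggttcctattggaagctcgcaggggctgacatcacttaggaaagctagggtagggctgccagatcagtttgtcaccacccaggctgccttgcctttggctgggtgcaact
Neither window held CAGGTG on either strand, and the other Ctnnd1 window and the Tjp1 window in the table held none.

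**Figure D2:**
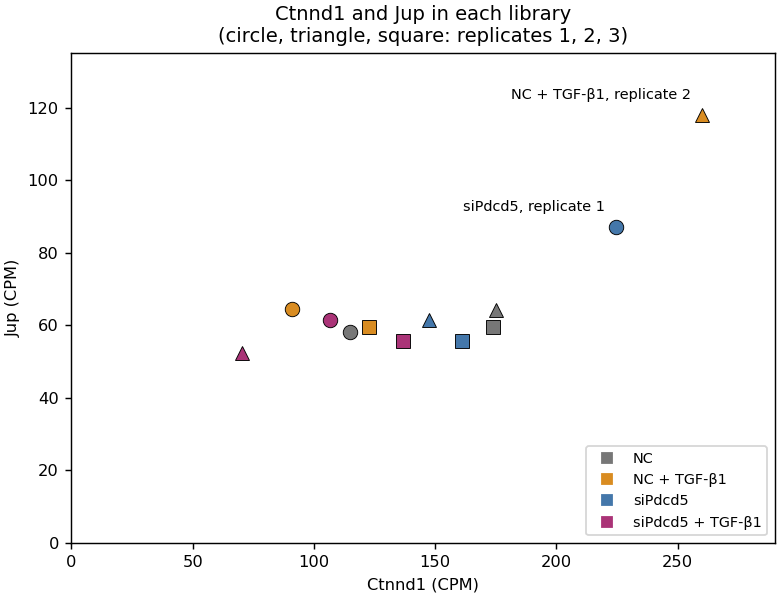
Level of Jup (vertical axis, CPM) against Ctnnd1 (horizontal axis, CPM) in the 12 libraries, coloured by group. The points at 260 and 118 CPM and at 224 and 86.9 CPM are replicate 2 of NC + TGF-β1 and replicate 1 of siPdcd5, and Jup stays between 52.3 and 64.6 CPM in the other 10.

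Tjp1, the scaffold ZO-1 on chromosome 7 at 65296165 to 65527781 (minus strand), was 50.9, 63.0 and 60.3 CPM in NC, 55.3, 57.0 and 55.8 once TGF-β1 was added, 47.4, 58.7 and 54.6 in siPdcd5 and 45.2, 34.3 and 45.9 in siPdcd5 + TGF-β1. The 3 siPdcd5 + TGF-β1 libraries were the lowest of all 12. Of all tested genes, 36.1% had groups without overlap with TGF-β1 in siPdcd5 cells and 18.9% with knockdown under TGF-β1. TGF-β1 in siPdcd5 cells gave a log2 fold change of −0.36 (SE 0.13, interval −0.63 to −0.09, edgeR adjusted p = 0.0688), and knockdown in TGF-β1-treated cells gave −0.42 (SE 0.13, interval −0.69 to −0.15, edgeR adjusted p = 0.128). In NC cells TGF-β1 gave −0.05 (SE 0.13, interval −0.32 to 0.21, edgeR adjusted p = 0.841), and the difference between these responses was −0.31 (SE 0.18, interval −0.69 to 0.08, edgeR adjusted p = 0.951), so it was not shown that they differ. Without the 2 libraries that stood apart, Tjp1 fell by 0.43 on the log2 scale (SE 0.11, edgeR adjusted p = 0.00586) with TGF-β1 in siPdcd5 cells, where 25.4% of genes passed. With knockdown under TGF-β1 it then fell by 0.39 (SE 0.11, edgeR adjusted p = 0.0337), where 8.62% of genes passed. Leaving out replicate 2 of NC + TGF-β1 alone, which bears on siPdcd5 cells only through the shared spread, or replicate 1 of siPdcd5 alone gave an edgeR adjusted p of 0.0423 and 0.0404 for TGF-β1 in siPdcd5 cells, where 22.2% and 14% of genes passed, and upper-quartile scaling with all libraries gave −0.39 and 0.0483, where 16.2% did. In untreated cells knockdown gave −0.12 (SE 0.12, interval −0.38 to 0.15, edgeR adjusted p = 0.735). Fewer cells of a type and less mRNA per cell cannot be told apart in these bulk libraries.

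**Figure D3:**
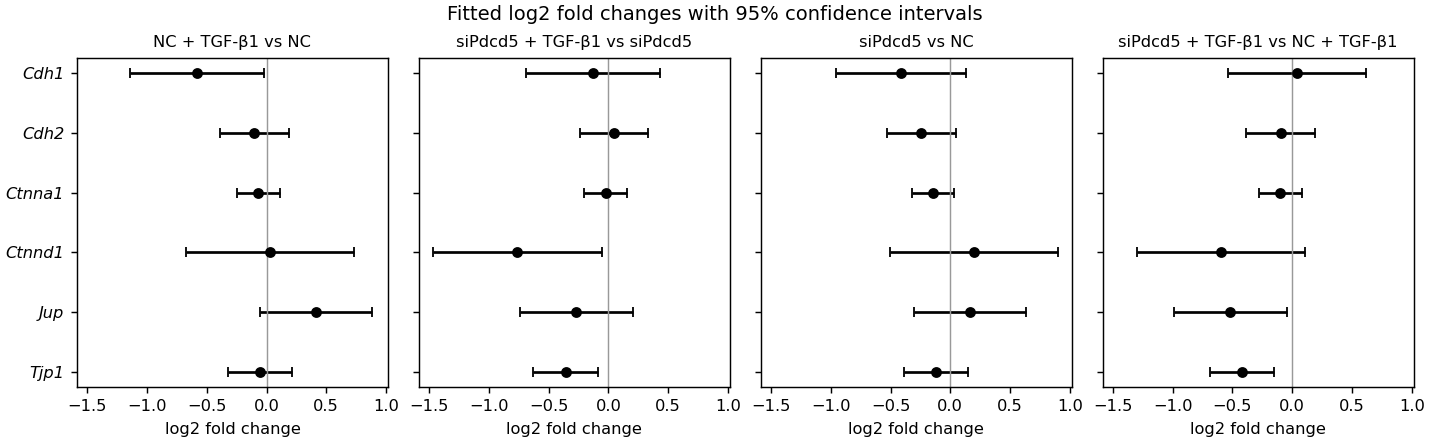
log2 fold change (horizontal axis) of the 6 tested junction genes in the 2 TGF-β1 and 2 knockdown comparisons (points, 3 libraries a group), with 95% intervals from edgeR's quasi-likelihood fit. Ctnnd1 has the widest interval in each panel and Ctnna1 the narrowest, and the value furthest from 0 is −0.76 for Ctnnd1 with TGF-β1 in siPdcd5 cells.

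As counts, 0 of 6 members passed with TGF-β1 in NC cells, against 15.3% of 12425 genes, 1 member (Cdh1) had an unadjusted p under 0.05 (27.1% of genes), 0 had groups without overlap (29.6%) and 0 passed with DESeq2 (17.8%). With TGF-β1 in siPdcd5 cells 0 of 6 passed against 16.1%, 2 (Ctnnd1 and Tjp1) had an unadjusted p under 0.05 (28.9% of genes), the same 2 had groups without overlap (36.1%), and 0 passed with DESeq2 (19.1%). Knockdown without TGF-β1 called 0 of 6 against 3.44%, with 0 at an unadjusted p under 0.05 (15.7%), 1 (Ctnna1) without overlap (23.1%), and 0 with DESeq2 (5.75%). Knockdown with TGF-β1 called 0 of 6 against 1.55%, with 2 (Jup and Tjp1) at an unadjusted p under 0.05 (13.8%), 1 (Tjp1) without overlap (18.9%), and 0 with DESeq2 (3.69%). The difference between the responses called 0 of 6 members and 0% of genes, with 1 (Jup) at an unadjusted p under 0.05 (5.13%) and 0 with DESeq2 (0.121%). Without the 2 libraries that stood apart, 1 (Ctnnd1), 2 (Ctnnd1 and Tjp1), 0, 1 (Tjp1) and 0 members passed in these comparisons, against 29.5%, 25.4%, 9.36%, 8.62% and 1.6% of genes. The median log2 fold change of the 6 was −0.06 and −0.20 with TGF-β1 in NC and siPdcd5 cells, and −0.13 and −0.26 with knockdown without and with TGF-β1. Over all tested genes the medians were 0.0050, −0.03, 0.02 and −0.02 in the same order. The member median of −0.26 was taken with Ctnnd1 at −0.59 and Jup at −0.52. Without the 2 libraries that stood apart these 2 values were −0.01 and −0.12.

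Over the 12 libraries, the genes whose log2 CPM followed Cdh1 most closely among 9128 compared were C2 (Pearson r = 0.84) and Cry2 (r = 0.81), and those closest to Cdh2 among 9127 were Rnf13 (r = 0.93) and Son (r = 0.88). These values are descriptions that share libraries and depth.

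Other junction genes were taken from 4 lists of 72 genes in the files, of which 29 were tested. The lists were chosen with earlier results of these data known, so their shares of called genes do not measure enrichment. With TGF-β1 in NC cells 4 rose and 4 fell (27.6%, against 15.3% of all genes), in siPdcd5 cells 5 rose and 3 fell (27.6% against 16.1%), and knockdown called 1 up and 2 down without TGF-β1 (10.3% against 3.44%) and 1 up and 1 down with it (6.90% against 1.55%). These counts moved with single libraries, as did those of all 12425 genes. Without replicate 2 of NC + TGF-β1, 13 were called with TGF-β1 in siPdcd5 cells and 5 with knockdown alone. All genes called then numbered 2761 and 673, against 2002 and 427 with all libraries. Without NC replicate 2 or 3 knockdown alone called 1, and 175 and 213 of all genes. Knockdown under TGF-β1 called 1 without any single library of its own 2 groups other than replicate 2 of NC + TGF-β1. It also called 1 without NC replicate 2 or 3 or siPdcd5 replicate 3. In the omissions where it called 1, 74 to 138 of all genes passed, against 192 with all libraries. In the desmosome list only the plakophilins passed the filter, 3 of 12 genes. Desmoplakin (Dsp) had at most 8 counts in a library, and 6 of the 9 untested desmosome genes had no count at all. Pkp1, a desmosomal plaque protein, rose with TGF-β1 from 1.92 ± 0.014 to 8.69 ± 0.186 CPM (mean ± SD, n = 3) in NC cells, a log2 fold change of 2.18 (SE 0.29, edgeR adjusted p = 9.1e-05). In siPdcd5 cells Pkp1 rose from 1.31 ± 0.792 to 10.4 ± 0.498 CPM (log2 fold change 2.95, SE 0.29, edgeR adjusted p = 6.6e-06). Pkp2 also rose, by 0.90 (SE 0.19) and 1.04 (SE 0.20) on the log2 scale, and Pkp3 rose in siPdcd5 cells from 2, 3 and 9 counts to 19, 10 and 31. That call was lost without siPdcd5 replicate 1 or 2 or siPdcd5 + TGF-β1 replicate 1 or 3 (edgeR adjusted p = 0.0744, 0.102, 0.0548 and 0.124). Its response was not shown to differ from that of NC cells, where Pkp3 had 3 to 10 counts without and 4 to 12 with TGF-β1. The median log2 fold change of the 3 was 0.90 in NC cells, the value of Pkp2 itself, against 0.0050 over all genes. In siPdcd5 cells the median was the value of Pkp3 itself, 2.19. With 3 genes tested, neither median is a summary of the list. Pkp3 had 2 to 12 counts in the other groups and passed the expression filter through siPdcd5 + TGF-β1, where it was high. It is among the 5 genes that rose in siPdcd5 cells.

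Among 11 tested plaque and nectin genes, TGF-β1 in NC cells raised Pvrl3 (nectin-3) and lowered Ctnnal1, an alpha-catenin relative, and Mllt4 (afadin, the nectin-binding adaptor), with a list median of −0.11. Ctnnal1 fell from 70.2 ± 5.59 to 42.9 ± 0.498 CPM (log2 fold change −0.71, SE 0.09, edgeR adjusted p = 5.2e-05), and in siPdcd5 cells it fell by 0.65 on the log2 scale (SE 0.09). For Mllt4 the log2 fold change was −0.36 (SE 0.07, edgeR adjusted p = 0.00391) in NC cells. In siPdcd5 cells Mllt4 did not pass (−0.19, SE 0.07, edgeR adjusted p = 0.106), and its responses were not shown to differ (edgeR adjusted p = 0.958). Pvrl3 was 66.6 ± 0.848 CPM in NC, 95.6 ± 9.55 once TGF-β1 was added, 40.2 ± 6.88 in siPdcd5 and 58.3 ± 1.89 in siPdcd5 + TGF-β1. It rose with TGF-β1 by 0.52 (SE 0.11) and 0.53 (SE 0.12) on the log2 scale and fell with knockdown by 0.72 (SE 0.12) and 0.71 (SE 0.11), with edgeR adjusted p of 0.00284 to 0.00547. Plekha7, an adherens junction protein, fell with knockdown without TGF-β1 from 6.23 ± 1.31 to 2.76 ± 0.701 CPM (log2 fold change −1.18, SE 0.25, edgeR adjusted p = 0.0206). That call was lost without NC replicate 2 or 3 or siPdcd5 replicate 2 (edgeR adjusted p = 0.0991, 0.0889 and 0.0787). In the 15 tested tight junction genes, Cxadr fell from 7.90 to 3.38 CPM and Jam2, a junctional adhesion molecule, rose from 4.25 to 9.71 CPM with TGF-β1 in NC cells, and in siPdcd5 cells Cxadr fell from 8.56 to 4.01 and Jam2 rose from 4.68 to 8.71 CPM. The medians of the tight junction list were 0.06 and −0.29, those of the plaque and nectin list in siPdcd5 cells −0.0048. Cxadr overlaps Btg3 on the other strand. Pard6b of the polarity complex fell by 0.63 (SE 0.13) and 0.45 (SE 0.13) in NC and siPdcd5 cells, the second call being lost with quantile scaling (limma adjusted p = 0.0595) and without siPdcd5 replicate 1 or 3 or siPdcd5 + TGF-β1 replicate 1 or 3 (edgeR adjusted p = 0.0659, 0.0619, 0.0865 and 0.101). Its partner Pard3 rose with knockdown by 0.70 (SE 0.14) without TGF-β1, a call lost without NC replicate 2 or 3 or siPdcd5 replicate 3 (edgeR adjusted p = 0.0779, 0.0826 and 0.0758). With TGF-β1 Pard3 rose by 0.60 (SE 0.14, edgeR adjusted p = 0.0492), a call lost in 12 of 19 alternatives, including the omission of any library of its 2 groups (edgeR adjusted p up to 0.216). All 12 other cadherins examined had at most 7 counts in a library.

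**Figure D4:**
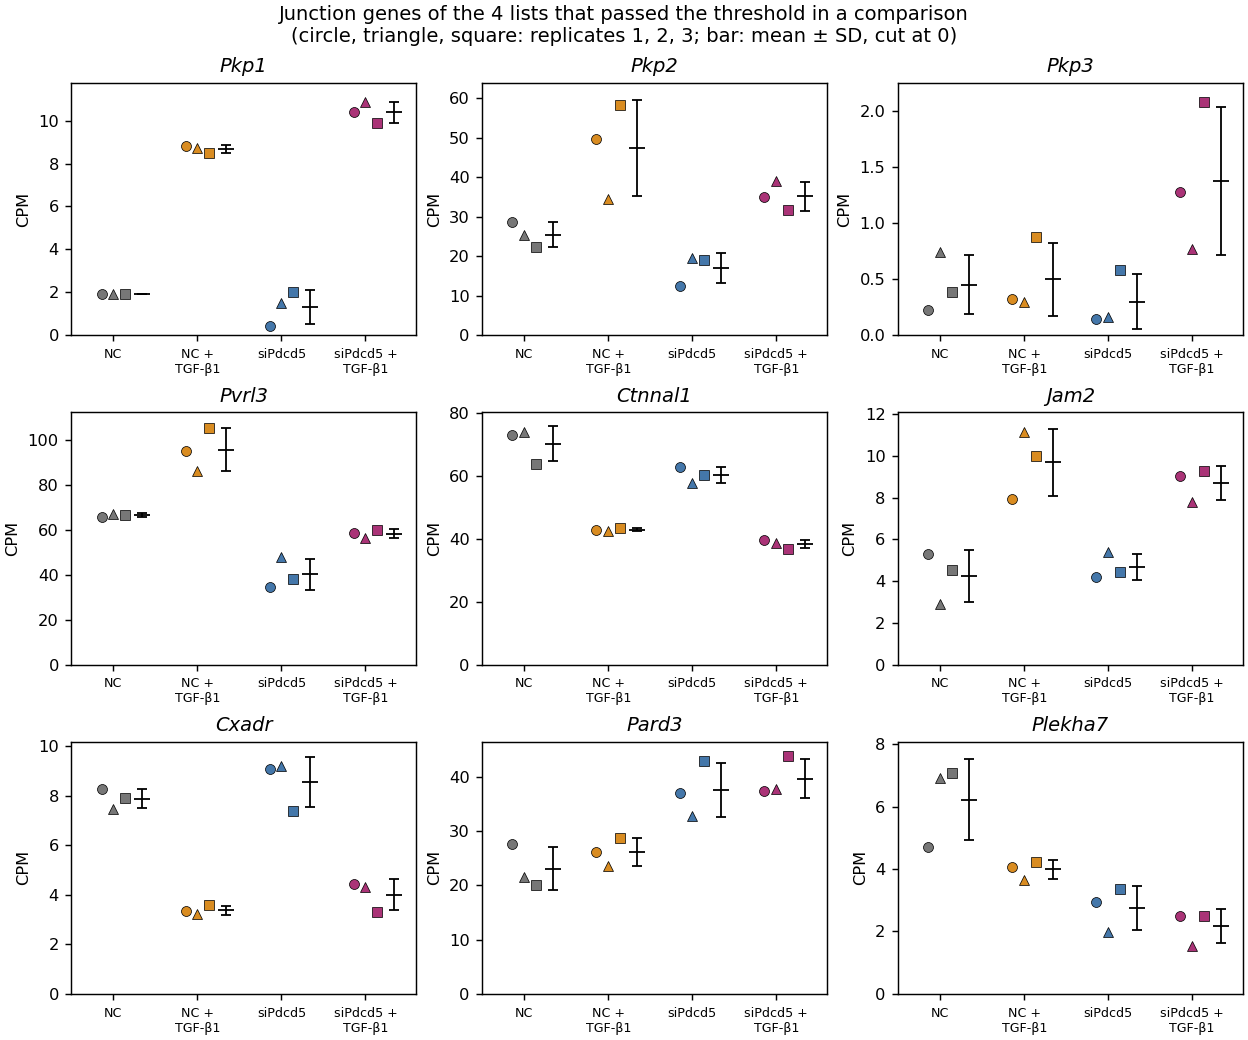
Level (CPM, vertical axis from 0 in each panel) of other junction genes in the 12 libraries; points are replicates and bars the mean ± SD (n = 3). Pkp1 and Pkp2 sit higher in both TGF-β1 groups than in the groups without it, Ctnnal1 sits lower, and Pvrl3 is lower in siPdcd5 than in NC cells at either TGF-β1 state.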

How the data were processed

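The 12 libraries were made with a QuantSeq 3′ mRNA-seq kit. The deposited values are read counts per gene: the authors ran Bowtie2 for alignment and Bedtools for counting, multiple alignments included, and the submitters' processing notes name mm10. The annotation is not given in the sources used here, and the authors' quantile normalization is not in the deposited counts. Counting multiple alignments can add reads from similar sequences to a gene.

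The counts were fitted as deposited with edgeR 4.0.16 (R 4.3.3): TMM factors, the default expression filter, 12425 genes, 1 mean per group, and Benjamini-Hochberg adjustment over all of them, with 0.05 as the threshold. The fit was tested on simulated data, but no outcome of that test is reported here and no result rests on it. Depth was 12809857 to 17714828 counts per library. Groups followed the labels. DESeq2 1.42.0, limma 3.58.1, other scalings and filters, a replicate block and leaving out libraries were alternatives. Promoter windows are from RefSeq; 4 of the 9 members had one. The 9 genes and the junction and marker lists were chosen with earlier results of these data known. All 9 were named, as were listed genes that passed the threshold; the 2 genes most alike were named for Cdh1 and Cdh2. Intervals are 95% intervals of edgeR's fit, and a library is compared with 3 counts as the floor.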

Additional observations from a re-analysis of the deposited data

How the results depend on the processing

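Of 570 member values under the alternatives, 544 kept direction and side of the threshold, 8 newly passed it and 19 turned direction, with 1 value, Ctnnd1 with TGF-β1 in NC cells without both libraries that stood apart, among both. With upper-quartile factors 1 member, Tjp1 (−0.39, edgeR adjusted p = 0.0483), passed with TGF-β1 in siPdcd5 cells, as did 16.2% of all genes. Leaving out single libraries gave 0 to 2 members there and 0 elsewhere. Without both libraries that stood apart, chosen after seeing the data, 1, 2, 0, 1 and 0 members passed (TGF-β1 in NC, in siPdcd5, knockdown without and with TGF-β1, difference), and the values that turned were Ctnnd1 (−0.55) with TGF-β1 in NC cells, Cdh2 (−0.087) and Ctnna1 (0.0076) with TGF-β1 in siPdcd5 cells, Ctnnd1 (−0.0094) and Jup (−0.055) with knockdown alone and Cdh2 (−0.036) in the difference. Quantile scaling turned Ctnnd1 to −0.15 and Cdh2 to −0.00902 in the respective TGF-β1 comparisons. Single omissions gave Ctnnd1 −0.53 to 0.31 and Tjp1 −0.14 to 0.0092 with TGF-β1 in NC cells. In siPdcd5 cells they gave Cdh2 −0.087 to 0.23, Ctnna1 −0.073 to 0.0077 and Cdh1 −0.21 to 0.055. With knockdown alone they gave Ctnnd1 −0.0091 to 0.32 and Jup −0.055 to 0.28, and with TGF-β1 they gave Cdh1 −0.027 to 0.14. The cause was not tested.

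For the 4 junction lists, knockdown with TGF-β1 called 1 gene with quantile scaling (148 of all genes) and 1 with at least 10 counts in every library (156). It called 1 with a replicate block (107 of all genes, and Pard3 was lost) and 1 to 2 with single omissions. Knockdown alone called 1 (without NC replicate 2 or 3) to 5, and TGF-β1 in siPdcd5 cells 6 to 13. Both upper values came without NC + TGF-β1 replicate 2, when 673 and 2761 of all genes passed, against 427 and 2002 with all libraries. Without both libraries the counts were 14 with TGF-β1 in siPdcd5 cells, 5 with knockdown alone and 4 with knockdown under TGF-β1. The shares of all genes that passed rose as well, to 25.4%, 9.36% and 8.62%, from 16.1%, 3.44% and 1.55% with all libraries. Same-numbered libraries deviated with r from −0.32 to 0.17, and 2 of 12 pairs exceeded 0.1. With 3 libraries a group, these correlations cannot show whether the numbers pair samples. With the replicate block, 1687, 1731, 301, 107 and 0 genes passed and 0 members in each comparison. Depth limits Cdh1, and more so Cdh3, Cdh11 and Ocln.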
